A study of Homo sapiens with 6 samples.

Results

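The 60 genes described here encode nucleolar factors that build ribosomes, from scaffolds of the nucleolus to the proteins that escort finished precursors out of the nucleus. They form a list given by gene name and known role in ribosome assembly. No threshold on their values entered it, but it was chosen with earlier results of these data known. All 60 were present among the 60728 genes of the count table, and all 60 passed the filter on low counts that left 15548 genes for testing. They were followed in JJN3, a human multiple myeloma cell line that carries the label WT for its genotype. RNA was sequenced after 2 h of WNK463, after 6 h of WNK463 and in DMSO vehicle, with 2 libraries per group. WNK463 blocks the WNK kinases, regulators of ion transport and cell volume. Its dose is stated as 5 µM in the sample protocol and as 1 µM in the series design. The labels name no collection time for DMSO cells, so time in culture and treatment cannot be told apart. JJN3 is 1 line. Whether the libraries of a group came from different cultures is not stated, and the p-values then cover the spread among the libraries alone, which may be technical.

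Ribosomes are assembled in the nucleolus, where RNA polymerase I transcribes a long precursor of the ribosomal RNAs. Small nucleolar ribonucleoproteins (snoRNPs) modify and fold that precursor, those of the box C/D class by methylation of ribose and those of the box H/ACA class by pseudouridylation. The small-subunit (SSU) processome, organised around the U3 snoRNP, cuts out and folds the precursor of the 40S subunit, and a separate set of factors assembles the precursor of the 60S subunit. Both precursors are exported and finished in the cytoplasm. Plasma cells have a large secretory and protein-making capacity, and many ribosome biogenesis genes are known targets of the transcription factor MYC.

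The libraries held 18013790 to 24002291 counts. Levels are given in CPM, counts scaled to a common library total, and 3 counts stood for 0.128 to 0.166 CPM. Of 9 plasma cell markers, 8 reached at least 1 CPM in each group, and CD27 stayed below it. Their summed level was 1440 to 1473 CPM at 2 h and 1388 to 1426 CPM at 6 h, against 1478 to 1515 CPM in DMSO cells. That sum joins markers that moved in opposite directions. At 6 h IRF4 (log2 change -0.28), XBP1 (-0.33) and MZB1 (-0.24) were called lower and PRDM1 (0.42) and SLAMF7 (1.15) higher. At 2 h IRF4 (-0.27) was called lower and SDC1 (0.37) and PRDM1 (0.335) higher. Markers of T and NK cells, erythroid cells and fibroblasts summed to at most 1.03 CPM in any library, and those of myeloid cells to at most 1.91 CPM. The 5 epithelial markers, mainly EPCAM, summed to 126 to 130 CPM at 2 h and 119 to 126 CPM at 6 h, against 102 CPM in both DMSO libraries. Of these CDH1 was called higher at 6 h (log2 change 1.07). At 2 h EPCAM (0.29) and CDH1 (0.61) were called higher. The part of these markers in the results was not tested. In bulk libraries scaled to a fixed total, less of a transcript per cell and fewer cells that carry it cannot be told apart.

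The ribosome biogenesis factors were broadly lower after 6 h of WNK463 and mostly near their DMSO level after 2 h. At 6 h, 58 of 60 were called lower than DMSO and 0 higher, where a call is an adjusted p under 0.05 in edgeR's quasi-likelihood test with Benjamini-Hochberg adjustment over all 15548 genes. Of all tested genes, 36.6% were called at 6 h, 18.6% as lower and 18.0% as higher. The median log2 change of the 60 factors was -0.70, which is 61.5% of the DMSO level, beside -0.00498 over all tested genes. Values ran from -2.65 for NOP2, which had very few counts, to 0.01 for NOC4L. At 2 h, 15 were called lower and 1, DDX10, higher, beside 17.0% of all genes called, 8.31% as lower and 8.66% as higher, and the median was -0.13. Between 6 h and 2 h, 55 were called lower at the later time and 0 higher, beside 24.2% of all genes, 13.1% as lower and 11.1% as higher. Both comparisons with DMSO share the same DMSO libraries. Of the 58 calls at 6 h, 53 held under each alternative tried. The 2 h calls rested more on single libraries, with 7 factors lower without 2 h replicate 2 and 10 without 2 h replicate 1.

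**Figure D1:**
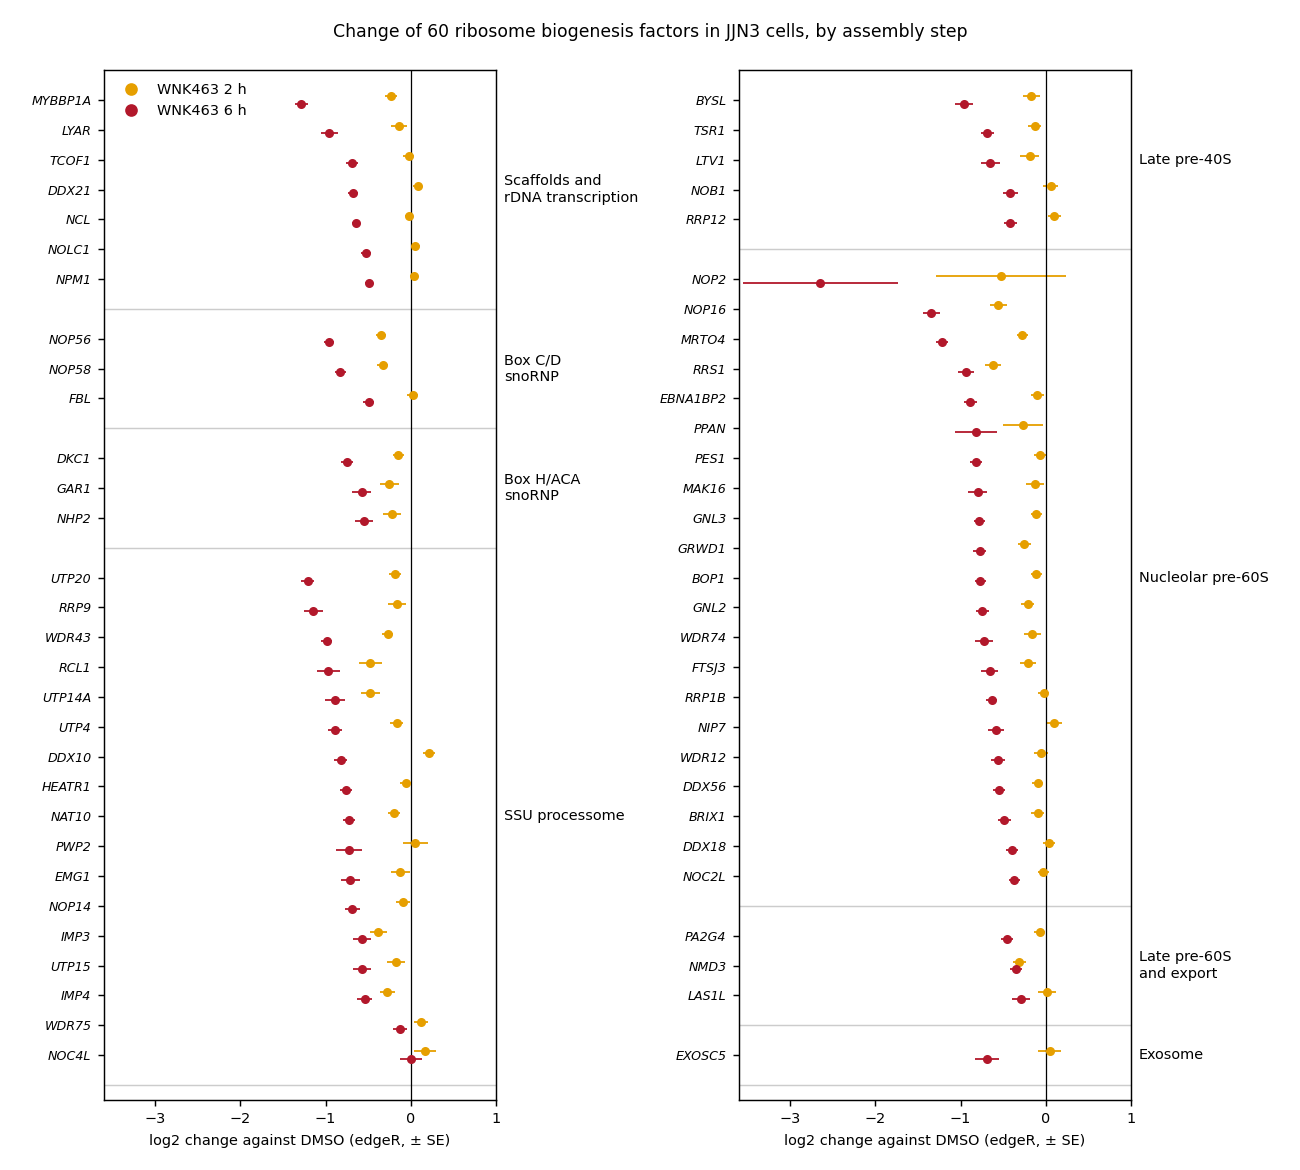
Each row is 1 of the 60 factors, grouped by assembly step, and points give the edgeR log2 change against DMSO with its standard error, in orange for 2 h and in red for 6 h. At 6 h the points sit left of 0 for 59 of 60 factors, and the 2 h points of most factors lie close to 0. NOP2, with the widest bars, had between 2 and 21 counts in each library.

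Taken as a sum over the 60 genes, transcripts of these factors made up 1.21% and 1.18% of all counts at 2 h and 0.832% and 0.831% at 6 h, against 1.28% and 1.27% in DMSO cells. The summed level was 12330 and 12065 CPM at 2 h and 8127 and 8149 CPM at 6 h, against 12814 and 12794 CPM in DMSO cells. Its mean at 2 h was 95.3% of the DMSO mean, and its mean at 6 h was 63.6%. NPM1 and NCL, with means of 2163 and 1836 CPM in DMSO cells, weigh most in this sum. Both libraries of each group lay close together, and the 6 h libraries stood apart from all the others. By step, the summed level at 6 h ranged from 58.2% of DMSO for box C/D snoRNP proteins to 75.7% for late pre-60S and export factors. At 2 h it ranged from 85.2% for box C/D snoRNP proteins to 103% for the single exosome subunit.

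**Figure D2:**
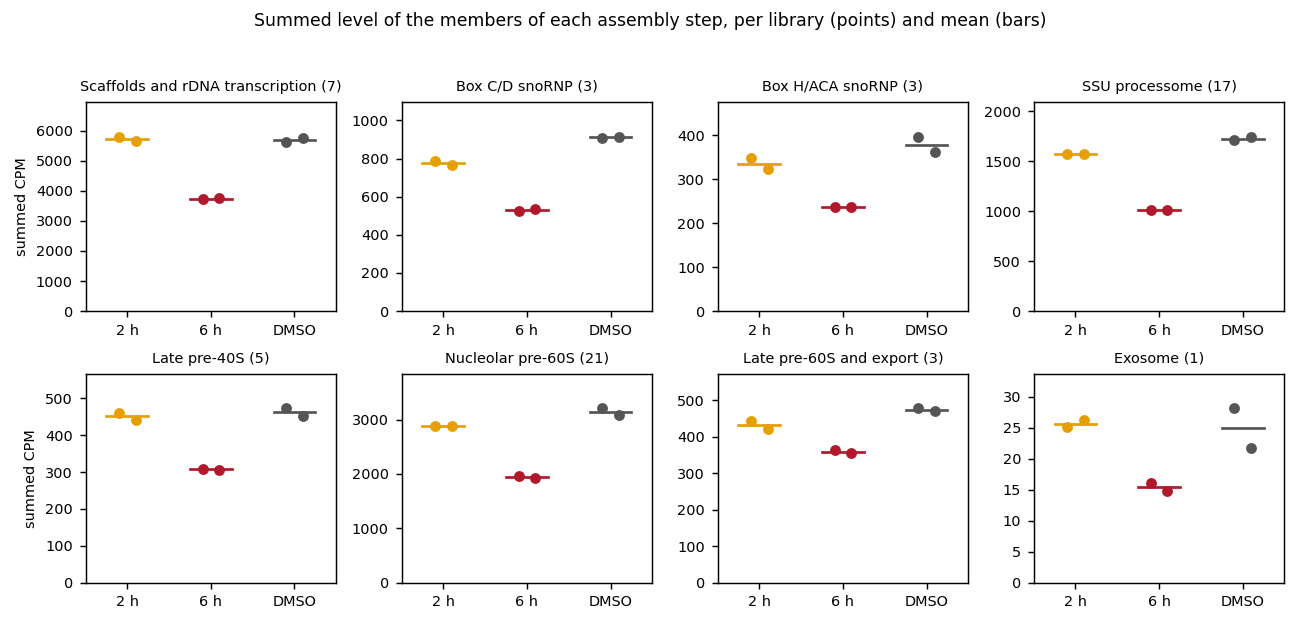
Summed CPM of the members of each assembly step (number of genes in brackets) is shown for each library as a point and for each group as a bar at the mean, with 2 h and 6 h of WNK463 left of DMSO. For the SSU processome the 6 h mean was 58.5% of the DMSO mean, and for the nucleolar scaffolds the 2 h mean was 101% of it. NPM1 and NCL weigh most in the sum of the scaffolds.

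The promoters of these genes were searched for one motif, the palindromic E-box CACGTG, which reads the same on both strands and is a preferred site of MYC with its partner MAX and of several related factors. RefSeq promoter sequences on GRCh38.p14, reaching from 250 bases before to 50 bases after the transcription start, were held for 51 of the 60 genes; BOP1, DDX18, MAK16, NOLC1, NOP58, RRP1B, RRP12, RRS1 and TCOF1 had none. Counting a gene if any of its listed starts carried the motif, 24 of the 51 (47.1%) did, beside 23 of 85 other assembly genes (27.1%) and 12.5% of 10836 tested genes with a promoter entry. Of 27 matches, 17 began after the listed start. For 55 of 60 promoter entries, bases after the start occurred in an annotated transcript of the gene. From the start onward, 17 of 51 genes (33.3%) had a match, beside 10 of 85 other assembly genes (11.8%) and 1.54% of tested genes, while in the 250 bases before the start 9 of 51 (17.6%) had one, beside 14 of 85 (16.5%) and 11.2%. These differences were not tested. The median GC content of the promoter entries was 64.0% for these genes and 64.7% for all tested genes, with 26 and 25 CpG dinucleotides. A match is a description of the letters and not evidence that a factor binds there. The following windows, from 30 bases before to 30 bases after the start, show an E-box close to the start in factors of several steps, printed in the sense of the gene and with the E-box in capitals.
MRTO4, chr1:19251775-19251834, plus strand: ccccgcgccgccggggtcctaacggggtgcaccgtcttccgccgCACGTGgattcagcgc
PES1, chr22:30591881-30591940, minus strand: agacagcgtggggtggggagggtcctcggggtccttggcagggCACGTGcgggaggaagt
GNL3, chr3:52686002-52686061, plus strand: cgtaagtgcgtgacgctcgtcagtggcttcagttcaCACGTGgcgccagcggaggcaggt
UTP20, chr12:101280075-101280134, plus strand: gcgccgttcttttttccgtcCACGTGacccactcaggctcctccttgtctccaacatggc
RRP9, chr3:51941875-51941934, minus strand: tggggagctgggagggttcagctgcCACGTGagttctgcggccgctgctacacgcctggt
WDR43, chr2:28894637-28894696, plus strand: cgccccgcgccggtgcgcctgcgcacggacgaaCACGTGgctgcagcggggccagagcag
PWP2, chr21:44107369-44107428, plus strand: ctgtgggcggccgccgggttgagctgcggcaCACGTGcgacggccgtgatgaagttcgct
FBL, chr19:39846350-39846409, minus strand: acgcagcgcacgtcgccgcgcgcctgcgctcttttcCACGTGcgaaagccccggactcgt
EXOSC5, chr19:41397330-41397389, minus strand: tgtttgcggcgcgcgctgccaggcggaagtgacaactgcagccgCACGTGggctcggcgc

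Counted from the start as base 1, the E-box began at base 15 in MRTO4, 14 in PES1, 7 in GNL3, 4 in WDR43, 2 in PWP2, 7 in FBL and 15 in EXOSC5. In UTP20 it began 10 bases and in RRP9 5 bases before the start. A further listed start of GNL3, upstream of the one shown, had no E-box in its promoter entry. These windows were chosen after the matches were seen. MYC itself had 537 and 534 CPM at 2 h and 464 and 462 CPM at 6 h, against 884 and 824 CPM in DMSO cells, a log2 change of -0.67 ± 0.0545 SE, adjusted p = 1.88e-13 at 2 h and -0.88 ± 0.0547 SE, adjusted p = 9.57e-18 at 6 h. Its DMSO libraries lay above all 4 treated ones. The 24 factors with the E-box had a median log2 change of -0.18 at 2 h and -0.85 at 6 h (range -2.65 to -0.50), and the 27 without it -0.10 and -0.57 (range -1.34 to 0.01). The 2 sets overlap widely, and the difference was not tested.

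**Figure D3:**
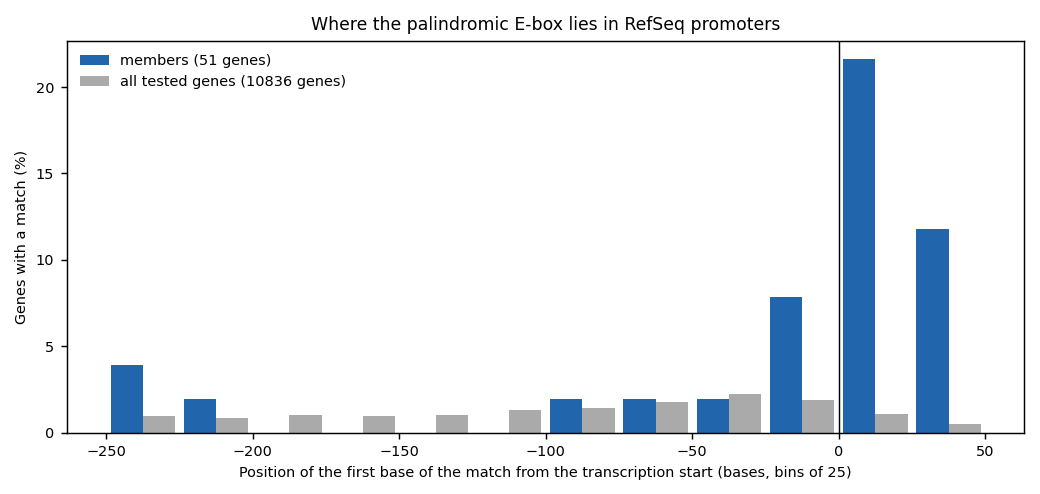
Bars give the share of genes with an E-box whose first base falls in each bin of 25 bases around the transcription start, in blue for the 51 ribosome biogenesis factors with a RefSeq promoter and in grey for 10836 tested genes. The tallest blue bar, 21.6%, covers the bin that begins at the start, where the grey bar is 1.05%.

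Scaffolds of the nucleolus and factors of ribosomal DNA transcription were near their DMSO level at 2 h and lower at 6 h, all 7 of 7 (median log2 change -0.02 at 2 h and -0.68 at 6 h). MYBBP1A, a nucleolar protein that acts in RNA polymerase I transcription and precursor processing (ENSG00000132382.14, chromosome 17 from 4538897 to 4555631, hg38), had 204 and 208 CPM at 2 h and 104 and 94.2 CPM at 6 h, against 252 and 231 CPM in DMSO cells. Its 3 groups did not overlap, and it fell at 2 h (log2 change -0.23 ± 0.0692 SE, adjusted p = 0.0144) and further at 6 h (-1.28 ± 0.0717 SE, adjusted p = 2.57e-19, 41.1% of DMSO). The 2 h call was lost without DMSO replicate 1 or without either 2 h library. LYAR, a zinc-finger protein of precursor processing, had 66.7 and 60.8 CPM at 2 h and 34.9 and 37.3 CPM at 6 h, against 69.7 and 70.5 CPM in DMSO cells. It fell at 6 h (log2 change -0.96 ± 0.0977 SE, adjusted p = 4.6e-11) and was not called at 2 h (-0.14 ± 0.0941 SE, adjusted p = 0.348). TCOF1 encodes treacle, which supports transcription of ribosomal DNA and is mutated in Treacher Collins syndrome. It had 209 and 212 CPM at 2 h and 129 and 135 CPM at 6 h, against 221 and 207 CPM in DMSO cells, so that the 2 h and DMSO libraries overlapped and the 6 h libraries lay below both (log2 change at 6 h -0.69 ± 0.0685 SE, adjusted p = 1.91e-11). The other 4 fell at 6 h by smaller steps, DDX21, an RNA helicase, at -0.68, nucleolin (NCL) at -0.65, the snoRNP chaperone NOLC1 at -0.52 and nucleophosmin (NPM1) at -0.49. NPM1 and NCL are the most abundant of the 60 per kilobase of exon, with 565 and 269 CPM per kb in DMSO cells. NCL had 1854 and 1766 CPM at 2 h and 1159.8 and 1184 CPM at 6 h, against 1842 and 1830.0 CPM in DMSO cells, and its 2 h and DMSO libraries differed little beside the gap to 6 h.

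**Figure D4:**
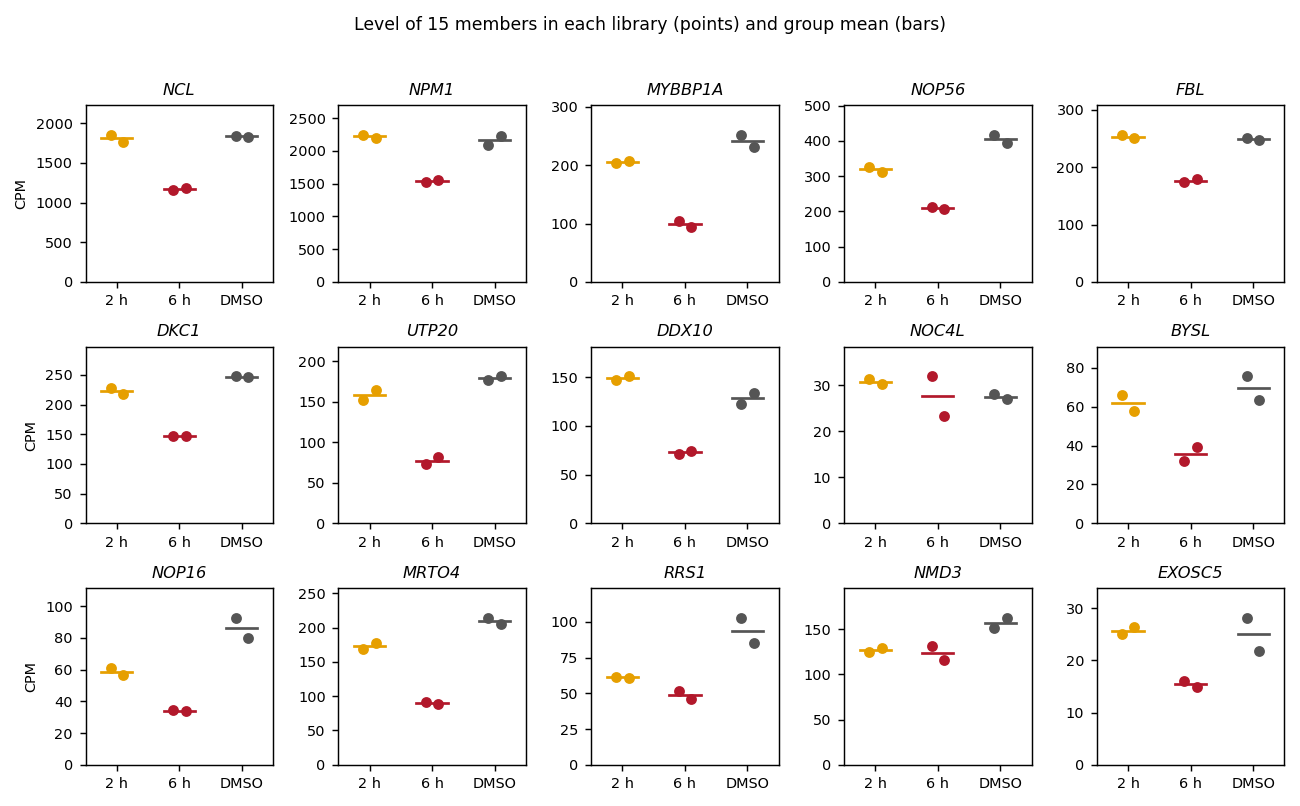
CPM of 15 factors in each library (points) and the group mean (bars), with 2 h and 6 h of WNK463 left of DMSO and each axis starting at 0. In MYBBP1A, NOP56, NOP16 and MRTO4 the 2 h libraries lie between those of 6 h and DMSO, in DDX10 the 2 h libraries are the highest, and in NOC4L the 6 h libraries span those of DMSO.

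Box C/D snoRNP proteins split at 2 h. NOP56 and NOP58, the paired core proteins of these particles, were already lower, and the methyltransferase fibrillarin (FBL) was not. NOP56 (ENSG00000101361.17, chromosome 20 from 2652593 to 2658393) had 325 and 312 CPM at 2 h and 211 and 206 CPM at 6 h, against 417 and 394 CPM in DMSO cells. Its groups did not overlap (log2 change -0.35 ± 0.0606 SE, adjusted p = 2.67e-05 at 2 h and -0.96 ± 0.0615 SE, adjusted p = 2.67e-17 at 6 h). NOP58 had 208 and 202 CPM at 2 h and 142 and 149 CPM at 6 h, against 242 and 273 CPM in DMSO cells, with the same order of groups (log2 change -0.33 ± 0.0679 SE, adjusted p = 0.000298 at 2 h and -0.83 ± 0.0689 SE, adjusted p = 1.31e-13 at 6 h). FBL, whose E-box window is shown above, had 256 and 250.5 CPM at 2 h and 174 and 179.7 CPM at 6 h, against 251 and 247 CPM in DMSO cells. Its 2 h libraries overlapped those of DMSO, without a call (log2 change 0.02 ± 0.0637 SE, adjusted p = 0.854), and it fell at 6 h (-0.50 ± 0.0644 SE, adjusted p = 2.06e-08).

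Box H/ACA snoRNP proteins gave no call at 2 h and 3 of 3 lower at 6 h. DKC1, the pseudouridine synthase of these particles, had 228 and 218 CPM at 2 h and 147 and 147 CPM at 6 h, against 248 and 246 CPM in DMSO cells. All 3 groups were apart, but the 2 h difference did not pass (log2 change -0.15 ± 0.0651 SE, adjusted p = 0.119), and the 6 h one did (-0.75 ± 0.0662 SE, adjusted p = 7.86e-13). GAR1, a core protein that helps the synthase act on its target, had 35.8 and 36.7 CPM at 2 h and 28.03 and 29.97 CPM at 6 h, against 44.8 and 41.6 CPM in DMSO cells. Its groups were stepped without overlap, and it fell at 6 h (log2 change -0.57 ± 0.112 SE, adjusted p = 5.03e-05). NHP2, a core RNA-binding protein, had 84.5 and 68.1 CPM at 2 h and 62.4 and 58.97 CPM at 6 h, against 104 and 73.5 CPM in DMSO cells. Its DMSO libraries differed from each other by more than those of DKC1 and GAR1, and 1 of them lay between the 2 h libraries. Its fall at 6 h (log2 change -0.55 ± 0.107 SE, adjusted p = 4.93e-05) was not called by DESeq2 (adjusted p = 0.0613). Part of its exonic length, 28.9%, is shared with RMND5B on the other strand, and counting ignored strand.

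The SSU processome held the largest falls among 40S factors and also both genes of the 60 that were not called lower at 6 h. Of 17 members, 15 fell at 6 h (median log2 change -0.73), and at 2 h 6 were called lower and 1 higher (median -0.17). UTP20, a large scaffold protein of the processome (ENSG00000120800.5, chromosome 12 from 101280105 to 101386618), had 152 and 164 CPM at 2 h and 73.6 and 81.7 CPM at 6 h, against 178 and 182 CPM in DMSO cells. The 6 h libraries lay far below the other 4, at 43.2% of DMSO in the fit (log2 change -1.21 ± 0.0759 SE, adjusted p = 1.29e-17), and at 2 h it was not called (-0.18 ± 0.0732 SE, adjusted p = 0.0766). RRP9, a protein of the U3 snoRNP, had 51.2 and 47.5 CPM at 2 h and 25.4 and 24.5 CPM at 6 h, against 57.9 and 52.3 CPM in DMSO cells. Its 6 h libraries lay far below the other 4 (log2 change at 6 h -1.14 ± 0.109 SE, adjusted p = 6.52e-12, 45.3% of DMSO). WDR43, of the UTP-A subcomplex that joins the precursor first, had 249.5 and 252 CPM at 2 h and 157 and 149 CPM at 6 h, against 295 and 309.8 CPM in DMSO cells. Its groups were stepped without overlap, and it fell at 2 h (log2 change -0.27 ± 0.0635 SE, adjusted p = 0.00166) and at 6 h (-0.98 ± 0.0648 SE, adjusted p = 6.5e-17).

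DDX10, an RNA helicase of the processome, was the factor that was higher at 2 h and lower at 6 h. It had 147 and 151 CPM at 2 h and 70.9 and 74.5 CPM at 6 h, against 123 and 134 CPM in DMSO cells, and no 2 groups overlapped. The log2 change was 0.21 ± 0.0756 SE, adjusted p = 0.0425 at 2 h, -0.82 ± 0.078 SE, adjusted p = 6.25e-12 at 6 h and -1.04 ± 0.0778 SE, adjusted p = 2e-14 between 6 h and 2 h. Its rise at 2 h was small and was not called under 8 alternatives (adjusted p = 0.0592 to 0.276), leaving out DMSO replicate 1 or either 2 h library among them. NOC4L, a partner of NOP14 in the processome, had 31.3 and 30.2 CPM at 2 h and 31.9 and 23.3 CPM at 6 h, against 27.97 and 26.98 CPM in DMSO cells. Its 6 h libraries lay on both sides of DMSO (log2 change 0.01 ± 0.13 SE, adjusted p = 0.983). WDR75, another UTP-A protein, had 103 and 107 CPM at 2 h and 89.1 and 86.7 CPM at 6 h, against 89.8 and 102 CPM in DMSO cells and was not called against DMSO at 2 h or at 6 h (log2 change at 6 h -0.13 ± 0.0821 SE, adjusted p = 0.231), though it was lower at 6 h than at 2 h (-0.25 ± 0.0817 SE, adjusted p = 0.0176). That later difference was not called under 5 alternatives, leaving out any 1 of the 2 h or 6 h libraries among them (adjusted p = 0.0664 to 0.167). The lack of a call for WDR75 against DMSO depended on which DMSO libraries were used. Without DMSO replicate 1 its log2 change at 6 h was -0.22. Without DMSO replicate 2 its log2 change at 2 h was 0.23, beside 0.12 with all libraries.

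The other processome members fell at 6 h over a range of log2 changes from -0.97 to -0.54. Of the UTP-A proteins, UTP4 stood at -0.89, HEATR1 at -0.76 and UTP15 at -0.57, and PWP2 of the UTP-B subcomplex at -0.72. RCL1, needed for cleavage of the precursor, stood at -0.97 and UTP14A, an activator of a processome helicase in yeast, at -0.89. NAT10, the cytidine acetyltransferase of 18S rRNA, stood at -0.72, the methyltransferase EMG1 at -0.71 and NOP14 at -0.68. IMP3 and IMP4, which bind U3 together with MPHOSPH10, stood at -0.57 and -0.54. At 2 h, UTP14A (-0.47), RCL1 (-0.47), IMP3 (-0.38), IMP4 (-0.28) and NAT10 (-0.20) were called lower beside WDR43. Each of these 5 calls was lost under at least 1 alternative. NAT10 lost it under 10 at a threshold of 0.05 (log2 change -0.22 to -0.17), the replicate block among them. Without 2 h replicate 2, UTP14A (adjusted p = 0.0829), IMP3 (adjusted p = 0.0891), IMP4 and RCL1 were not called, nor was IMP4 without DMSO replicate 1 (adjusted p = 0.141 to 0.271) or RCL1 without DMSO replicate 2 (adjusted p = 0.131 to 0.24). IMP3 shares 59.0% and EMG1 53.3% of exonic length with neighbours, so their levels are uncertain.

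Factors that finish and export the 40S precursor gave no call at 2 h and 5 of 5 lower at 6 h (median log2 change -0.65). BYSL, needed for late cleavage of the precursor, had 66.04 and 57.98 CPM at 2 h and 32.3 and 39.1 CPM at 6 h, against 75.7 and 63.6 CPM in DMSO cells. The 2 h and DMSO libraries overlapped, and it fell at 6 h (log2 change -0.96 ± 0.106 SE, adjusted p = 3.58e-10). TSR1, a GTPase-like protein on the cytoplasmic precursor, had 127 and 123 CPM at 2 h and 82.6 and 86.8 CPM at 6 h, against 139.9 and 133 CPM in DMSO cells, with the 6 h libraries well below the other 4 (log2 change -0.69 ± 0.0768 SE, adjusted p = 4.83e-10). LTV1, an assembly factor removed in the cytoplasm, had 37.4 and 35.1 CPM at 2 h and 26.8 and 25.8 CPM at 6 h, against 37.4 and 45.1 CPM in DMSO cells, with a 2 h library beside a DMSO library (log2 change at 6 h -0.65 ± 0.117 SE, adjusted p = 1.42e-05). It shares 34.7% of exonic length with same-strand genes. NOB1, the endonuclease that makes the 3′ end of 18S rRNA, stood at -0.42 and the export factor RRP12 at -0.42.

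Among the 21 nucleolar factors of the 60S precursor, 21 fell at 6 h (median log2 change -0.77) and 5 were called lower at 2 h (median -0.11). NOP16, a 60S assembly factor (ENSG00000048162.21, chromosome 5 from 176383938 to 176388927), had 60.96 and 56.7 CPM at 2 h and 34.3 and 33.7 CPM at 6 h, against 92.7 and 80.2 CPM in DMSO cells. Its groups were stepped without overlap, with 68% of the DMSO level at 2 h (log2 change -0.56 ± 0.0944 SE, adjusted p = 1.76e-05) and 39.4% at 6 h (-1.34 ± 0.0983 SE, adjusted p = 2.01e-15). MRTO4, which holds the place of the ribosomal stalk on the precursor, had 169 and 178 CPM at 2 h and 91.7 and 88.7 CPM at 6 h, against 214 and 205 CPM in DMSO cells. Its groups were also stepped without overlap (log2 change -0.27 ± 0.0695 SE, adjusted p = 0.00369 at 2 h and -1.22 ± 0.0718 SE, adjusted p = 1.88e-18 at 6 h). RRS1, which with RPF2 brings in the 5S ribonucleoprotein, had 61.6 and 60.6 CPM at 2 h and 51.5 and 46.3 CPM at 6 h, against 103 and 84.95 CPM in DMSO cells. It had the largest called fall of the 60 at 2 h (log2 change -0.62 ± 0.0938 SE, adjusted p = 2.16e-06), and the difference between 6 h and 2 h was smaller (-0.32 ± 0.0964 SE, adjusted p = 0.0104) than that between 6 h and DMSO (-0.94 ± 0.0954 SE, adjusted p = 3.98e-11).

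NOP2, a methyltransferase of 28S rRNA, had only 11 and 18 counts at 2 h and 2 and 4 counts at 6 h, against 18 and 21 counts in DMSO cells. Of its exonic length, 54.4% is shared with another annotated gene on its strand, and fragments that touch both were not counted. Its fall at 6 h (log2 change -2.65 ± 0.912 SE, adjusted p = 0.0189) was lost without any 1 of the DMSO or 6 h libraries (adjusted p = 0.0705 to 0.169). PPAN, a 60S factor that shares 49.2% of its exonic length with the read-through gene PPAN-P2RY11, had 6.94 and 7.39 CPM at 2 h and 4.48 and 5.29 CPM at 6 h, against 11.4 and 5.95 CPM in DMSO cells. Its DMSO libraries straddled the 2 h ones, and its log2 change at 6 h, -0.82, stood at -0.29 without DMSO replicate 1 (adjusted p = 0.49).

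The remaining 60S factors fell at 6 h by log2 changes from -0.88 to -0.37. The PES1, BOP1 and WDR12 proteins form the PeBoW complex, and their genes stood at -0.82, -0.77 and -0.56. The GTPases GNL3 (nucleostemin) and GNL2 stood at -0.78 and -0.75, and GRWD1, a chaperone of ribosomal protein L3, at -0.77. EBNA1BP2 stood at -0.88, MAK16 at -0.80, WDR74 at -0.73, the methyltransferase FTSJ3 at -0.66, RRP1B at -0.64 and NIP7 at -0.59. The helicases DDX56 and DDX18 stood at -0.55 and -0.40, BRIX1 at -0.49 and NOC2L at -0.37. At 2 h, GRWD1 (-0.25) and GNL2 (-0.21) were called lower beside NOP16, MRTO4 and RRS1. The GNL2 call was lost under 8 alternatives at a threshold of 0.05 (log2 change -0.29 to -0.14). DESeq2 and the fit of only the compared groups were among them. The GRWD1 call was lost without DMSO replicate 1 or either 2 h library (log2 change -0.28 to -0.15). The MRTO4 call was lost without 2 h replicate 1 (log2 change -0.24).

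Late 60S and export factors had small falls at 6 h, 3 of 3 called (median log2 change -0.35). PA2G4, which binds the 60S particle near the peptide exit, had 266 and 240.4 CPM at 2 h and 193 and 196 CPM at 6 h, against 274 and 258 CPM in DMSO cells. The 2 h and DMSO libraries overlapped, and it fell at 6 h (log2 change -0.45 ± 0.0657 SE, adjusted p = 2.2e-07). NMD3, the adaptor that takes the 60S particle through the nuclear pore, had 124 and 129 CPM at 2 h and 131 and 116 CPM at 6 h, against 152 and 163 CPM in DMSO cells. It was lower at both times, with libraries of 2 h and 6 h interleaved (log2 change -0.31 ± 0.0748 SE, adjusted p = 0.00212 at 2 h, -0.35 ± 0.0751 SE, adjusted p = 0.000201 at 6 h and -0.04 ± 0.0754 SE, adjusted p = 0.775 between 6 h and 2 h). The 2 h call was lost without 2 h replicate 1 (adjusted p = 0.0579) and the 6 h call without 6 h replicate 2 (adjusted p = 0.0518). LAS1L, part of the endonuclease complex that cuts the spacer before 28S rRNA, had 50.95 and 50.3 CPM at 2 h and 38.8 and 43.1 CPM at 6 h, against 51.4 and 48.9 CPM in DMSO cells. The 2 h and DMSO libraries overlapped and the 6 h ones lay below them. Its fall at 6 h (log2 change -0.29 ± 0.102 SE, adjusted p = 0.0213) was not called without DMSO replicate 1 or 6 h replicate 1 (adjusted p = 0.0752 to 0.268). EXOSC5, a ring subunit of the RNA exosome that trims the precursors, had 25.1 and 26.3 CPM at 2 h and 16.1 and 14.8 CPM at 6 h, against 28.1 and 21.8 CPM in DMSO cells. The 2 h libraries lay inside the DMSO range, and it fell at 6 h (log2 change -0.69 ± 0.141 SE, adjusted p = 9.44e-05).

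The 100 other assembly genes on a list drawn from the same steps were also mostly lower at 6 h. Their median change was smaller than that of the 60 factors. The difference was not tested, and both lists were chosen with earlier results of these data known. Of the 100 genes, 73 were called lower and 1 higher at 6 h (median log2 change -0.46). At 2 h 22 were called lower and 2 higher, NOP53 and SBDS (median -0.10). Between 6 h and 2 h, 67 were lower and 0 higher. Other SSU processome genes gave 24 of 30 lower at 6 h, among them NOL6 (log2 change -1.18 ± 0.0819 SE, adjusted p = 4.05e-16) and RRP7A (-1.13 ± 0.0963 SE, adjusted p = 2.65e-13). Other nucleolar 60S factors gave 20 of 26 lower, among them URB2 (-1.20 ± 0.0944 SE, adjusted p = 2.28e-14) and RPF2 (-1.15 ± 0.0945 SE, adjusted p = 9.47e-14), and 1 higher, NOP53, which recruits the exosome to the 60S precursor (0.19 ± 0.0713 SE, adjusted p = 0.0318). Other late 40S factors gave 5 of 7 lower, with PNO1, the partner of NOB1, at -1.19 and TSR3 at -0.63. Other late 60S factors gave 9 of 14, with the SUMO protease SENP3 at -0.84 and the giant ATPase MDN1 at -0.81. SENP3 shares part of its exons with a read-through gene. Other snoRNP genes gave 6 of 10, with the ATPase RUVBL1 at -0.75 and the box C/D assembly factor NUFIP1 at -0.74, and other exosome genes 9 of 13, with EXOSC2 at -0.85 and EXOSC7 at -0.76.

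**Figure D5:**
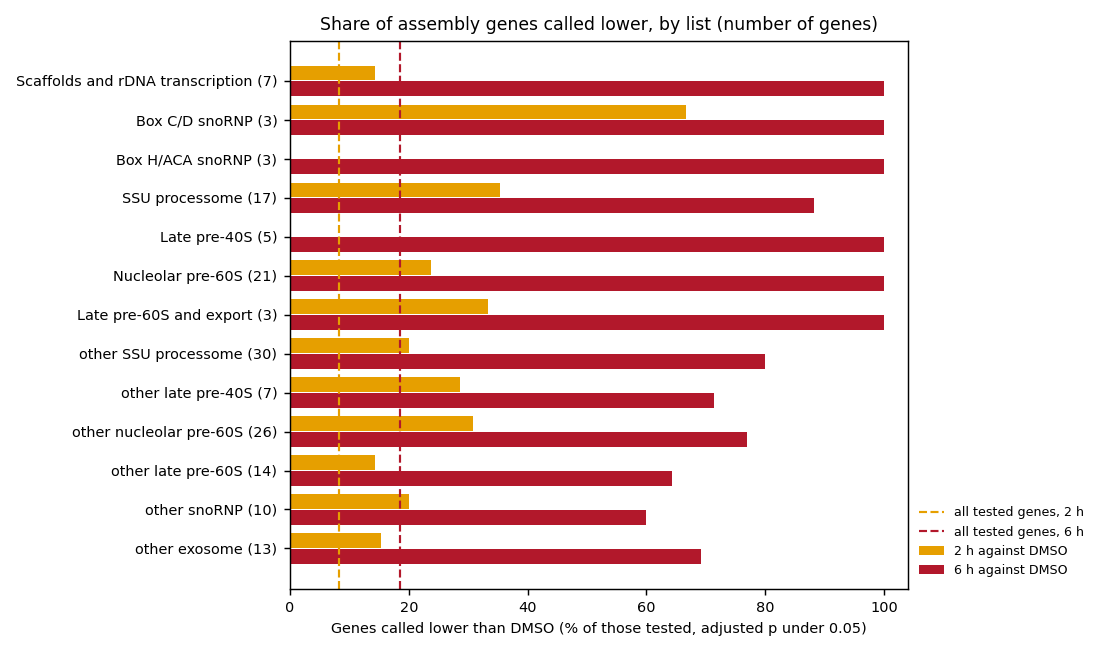
Bars give the share of genes in each list (number tested in brackets) that were called lower than DMSO, in orange at 2 h and in red at 6 h, and dashed lines give that share over all tested genes, 8.31% at 2 h and 18.6% at 6 h. The single exosome factor is not drawn. At 6 h the bars reach 100% for 6 of the 7 steps of the 60 factors shown and 88.2% for the SSU processome, and the lowest, for other snoRNP genes, stands for 6 of 10.

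Falls at 6 h were similar in median across the range of transcript levels. In DMSO cells the 60 factors ranged from 0.212 CPM per kb of exon for NOP2 to 565 for NPM1. The 20 most abundant per kb had a median log2 change at 6 h of -0.66, the next 20 of -0.74 and the 20 least abundant of -0.70. At 6 h, 6 factors stood below 50% of DMSO (NOP2, NOP16, MYBBP1A, MRTO4, UTP20 and RRP9), 47 between 50% and 75%, and 7 at 75% or above (RRP12, DDX18, NOC2L, NMD3, LAS1L, WDR75 and NOC4L). At 2 h no factor stood below 50% and 5 stood below 75% (RRS1, NOP16, NOP2, RCL1 and UTP14A, of which NOP2 was not called). The genes lie on 20 chromosomes. Of the 19 that share more than 10% of their exonic length with another gene, 19 were called lower at 6 h, and of the other 41, 39 were.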

How the data were processed

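Values are counts of fragments assigned to genes in 6 RNA-seq libraries. Per the file headers, the deposited counts were made with featureCounts 2.0.0 on GENCODE 34, from paired reads with a minimum mapping quality of 20 and without regard to strand. Per the submitters' processing notes, reads were trimmed with Trimmomatic and aligned with STAR to hg38, with versions not given in the sources used here. Fragments touching 2 genes were not counted, so genes with shared exons are underestimated. The broken record of ANK2 was rejoined. The quasi-likelihood test of edgeR 4.0.16 (R 4.3.3) was run on all 6 libraries together, 1 coefficient per group, after filterByExpr and TMM scaling. Its estimate of a gene's spread borrowed 42.8 degrees of freedom from other genes, beside 3 residual ones. CPM use the TMM-scaled library sizes, and CPM per kb the union of annotated exons. Standard errors come from the F statistic. Libraries of 1 group were not duplicates: the chi-square of their counts, divided by its degrees of freedom, was 4.22 at 2 h, 3.62 at 6 h and 9.17 in DMSO.

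The members, the assembly steps, the other assembly genes and the tests were chosen with earlier results of these data known. Each factor is named with its 6 h log2 change. Full values are given for the 3 largest called changes at 6 h of each step with 5 or more members, all members of smaller steps, those not called lower at 6 h, the 3 largest changes at 2 h and those called higher, and for MYC. For each list of other assembly genes the 2 largest called changes at 6 h and those called higher at 6 h are named. The plot of levels by library shows 15 factors chosen after their values were seen, and NCL and PPAN are described beyond the rule. Tested on simulated data for 6 h with DMSO over 15118 genes, the fit recovered 40.0%, 78.0%, 90.0% and 100% of genes changed by 0.3, 0.5, 0.7 and 1 on the log2 scale. Of 159 calls, 5 were false. Only 50 genes were changed at each size, a far smaller share than was called at 6 h here. The changed genes were drawn only from those above a floor on mean CPM. The rates therefore do not cover low-count genes such as NOP2. The simulated spread came from the fit itself, so these rates may not hold for the real libraries. Alternatives were other scalings and filters, the DESeq2 1.42.0 Wald test, voom in limma 3.58.1, a replicate block, fits restricted to the compared groups, a threshold of 0.01 and leaving out each library; use of only the first listed promoter start was added after seeing the data. Plots used matplotlib 3.10.9 under Python 3.11.15.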

Additional observations from a re-analysis of the deposited data

Results flagged for a closer look

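The change from DMSO differed between 6 h and 2 h for 55 of the 60 factors, by the edgeR test of 6 h with 2 h, which compares both times directly. The largest called log2 differences were -1.05 for MYBBP1A, -1.04 for DDX10 and -1.03 for UTP20. The median difference over the 60 factors was -0.565. NOP16 and RRS1, picked for the largest called changes at 2 h, stood at -0.79 and -0.32. DDX10 changed direction, being called higher at 2 h and lower at 6 h, but its 2 h call was lost under 8 alternatives. RRS1 had most of its fall at 2 h, and its later difference was not called without 2 h replicate 1 or 6 h replicate 2 (adjusted p = 0.0646 to 0.203).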

How the results depend on the processing

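None of the 60 factors reversed a called change under any of the 16 alternatives. At 6 h against DMSO, 53 of 58 calls held under every one, and those of LAS1L, NHP2, NMD3, NOP2 and PPAN were lost under at least 1. At 2 h, 5 of 16 calls held under every alternative and 10 further factors were called under at least 1, and between 6 h and 2 h 45 of 55 held. Those 10 went in both directions. Without DMSO replicate 2 the log2 changes at 2 h of DDX21, NPM1 and WDR75 were positive, at 0.16, 0.095 and 0.23. The rest of the 10 had negative changes. Leaving out 1 library at a time gave 7 to 16 factors lower at 2 h, the lowest without 2 h replicate 2, 55 to 58 at 6 h and 47 to 56 between 6 h and 2 h. Genes called over the whole table then numbered 1527 to 2910 at 2 h (2638 with all libraries), 4021 to 5600 at 6 h (5693) and 2288 to 4661 between the times (3770), and other assembly genes lower at 2 h numbered 10 to 25 (22). The median log2 change of the 60 factors ranged from -0.144 to -0.0879 at 2 h and from -0.736 to -0.655 at 6 h. With library size alone it was -0.161 at 2 h and -0.499 between 6 h and 2 h. At a threshold of 0.01, 1560 genes and 11 other assembly genes (lower) were called at 2 h. Where a library was left out, the lone library of its group was assumed to vary like the others. The share of factors with an E-box fell to 17.6% when only the 250 bases before the start were searched and was 39.2% with only the first listed start. Replicate numbers shared between groups do not pair the libraries by any label, and deviations of same-numbered libraries correlated at -0.0054 to -0.0381. With a replicate block, 14 factors were lower at 2 h, 58 at 6 h and 55 between 6 h and 2 h. Low counts limit NOP2. Shared exons limit the 19 factors with more than 10% of exonic length shared, most of all IMP3, EMG1, NOP2 and PPAN. TSR1 (23.9%) and PA2G4 (24.9%) are also among these 19.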

Other observations

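Some proteins of ribosome assembly work as fixed partners, and the transcripts of partners were set side by side after their values were seen, with no test of the differences. RRS1 and RPF2, which bring in the 5S ribonucleoprotein together, stood at log2 changes of -0.62 and -0.52 at 2 h and -0.94 and -1.15 at 6 h. IMP3, IMP4 and MPHOSPH10 form 1 complex and stood at -0.38, -0.28 and -0.07 at 2 h and -0.57, -0.54 and -0.39 at 6 h. NOP14 and NOC4L, which bind each other, stood apart at 6 h, at -0.68 and 0.01. So did NOB1 and its partner PNO1, at -0.42 and -1.19. The 6 h libraries of NOC4L, at 31.9 and 23.3 CPM, lay on both sides of DMSO. NOP14 and NOB1 share 20.7% and 20.4% of exonic length with other genes. SNU13, the core box C/D protein that the 60 factors do not include, stood at -0.19 at 2 h and -0.68 at 6 h. At these times NOP56 stood at -0.35 and -0.96, NOP58 at -0.33 and -0.83 and FBL at 0.02 and -0.50.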
